A study of Mus musculus with 6 samples.

Results

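The heat shock response of hematopoietic stem cells was described through 10 genes: the transcription factors Hsf1 and Hsf2 and the stress-inducible chaperone genes Hspa1a, Hspa1b, Dnajb1, Bag3, Hsph1, Hspb1, Hspe1 and Hspd1. They were chosen by name, with earlier results of these data known. All 10 were found among the 22969 gene identifiers of the count table. The cells were sorted from the bone marrow of C57BL/6 mice as Sca-1 and c-Kit positive cells without lineage markers that carry CD150 and lack CD48, about 500 per library. Libraries were made with Smart-seq2, which amplifies whole cDNA from few cells. The 3 libraries labelled Rbfox2-deleted came from mice with the genotype Vav1-cre; Rbfox2-fl/fl, in which Cre is driven by a promoter active throughout the blood system, and the 3 control libraries from Rbfox2-fl/fl mice without Cre. Both groups carry the floxed alleles of Rbfox2, a splicing regulator, and a Cre-only group was not analysed here. The mice of both groups were adult. Protein homeostasis in these cells is the subject of the series.

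Cells hold HSF1 inactive in complexes with chaperones. When misfolded proteins draw the chaperones away, HSF1 forms trimers, binds heat shock elements, which are inverted repeats of the letters GAA, and turns on chaperone genes. HSF2 is a related factor that can join HSF1 in mixed trimers. Blood stem cells make protein slowly and are known to be sensitive to misfolded protein, and Hsf1 has been studied in them as a factor in culture stress and aging.

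Libraries labelled Rbfox2-deleted held 23474895 to 35650284 counts and control libraries 47895459 to 55151484 counts, so that every control was deeper. Library 1 labelled Rbfox2-deleted stood apart from all others, also from its own group. Its Spearman correlations across genes with them were 0.774 to 0.777, against 0.895 to 0.963 for the remaining pairs. It had counts for 14154 genes, against 15950 to 17087 in the other libraries. Controls 1 and 3 were nearly identical (chi-square of 3.44 per degree of freedom, while other pairs of libraries gave 156 to 808) and were summed and counted as 1 sample. This left n = 3 labelled Rbfox2-deleted against n = 2 control. Rbfox2 itself had 2, 87 and 10 counts in libraries 1, 2 and 3 labelled Rbfox2-deleted, against 238, 11 and 250 in controls 1, 2 and 3. Scaled to depth, these were 0.101, 2.26 and 0.257 CPM in libraries labelled Rbfox2-deleted, against 4.93, 0.229 and 4.496 CPM in controls. Control 2 thus lay below library 2 labelled Rbfox2-deleted and about level with library 3, within counting error. This goes against the labels, by which all directions below are drawn. The counts do not say how many of these reads came from outside the floxed exons. Xist was high in libraries 1 and 3 labelled Rbfox2-deleted (2821 and 2467 counts) and at most 55 in the other 4, so that female mice stood in the group labelled Rbfox2-deleted alone. All 12 stem cell genes checked, among them Kit, Ly6a (Sca-1) and Slamf1 (CD150), had counts in every library, some of them few. Tek and Ctnnal1 had 1 count each in library 1 labelled Rbfox2-deleted, and Tek had 8 and Fgd5 6 in library 3. Fgd5 had 27, 928 and 34 counts in controls 1, 2 and 3.

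Heat shock elements were looked for in the sequence before the start of each gene, since they are the letters through which HSF1 acts. RefSeq promoters (build GRCm38.p6) were matched for 9 of the 10 genes, all but Hsf1, with 12 start sites. A run of 3 alternating units (GAANNTTC followed by NNGAA, or TTCNNGAA followed by NNTTC) was searched on both strands in the 250 bases upstream. It was present in 0.466% of 32851 promoters in the table and at 2 of the 12 start sites, those of Hspe1 and Hspd1, which lie head to head on chromosome 1. Both read the same stretch from opposite strands. It is shown because no other promoter of these genes held such a run, with the letters of 2 overlapping runs in capitals. It lies at chr1:55088053-55088082 (plus strand), within untranslated exon sequence of an annotated transcript of the pair.
Hspe1: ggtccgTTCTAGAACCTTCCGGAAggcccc

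Pairs of units, GAANNTTC (in 6.69% of promoters) or TTCNNGAA (in 7.17%), were found, outside any perfect run of 3, before Hspb1, Hspa1a, Hspa1b and Hsph1. Further units beyond a gap or a mismatched unit were not searched for. Both patterns read the same on either strand, and each run of 3 holds both. The 150 bases before Hspb1 (chr5:135887769-135887918, plus strand), Hspa1a (chr17:34972157-34972306, minus strand) and Hspa1b (chr17:34959239-34959388, minus strand) and a 30-base stretch of Hsph1 (chr5:149636352-149636381, minus strand) are shown with the matches in capitals. Hspb1 is shown for the result below, and Hspa1a and Hspa1b to let the near-identity of these copies be seen. These and Hsph1 were picked after their values were seen. Hspa1a and Hspa1b differed at 3 of the 250 upstream bases.
Hspb1: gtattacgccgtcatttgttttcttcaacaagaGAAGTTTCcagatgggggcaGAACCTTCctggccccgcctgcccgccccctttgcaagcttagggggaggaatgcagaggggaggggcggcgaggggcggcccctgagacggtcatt
Hspa1a: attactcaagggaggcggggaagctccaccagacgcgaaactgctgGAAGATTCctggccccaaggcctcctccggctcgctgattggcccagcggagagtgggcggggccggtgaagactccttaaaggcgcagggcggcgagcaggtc
Hspa1b: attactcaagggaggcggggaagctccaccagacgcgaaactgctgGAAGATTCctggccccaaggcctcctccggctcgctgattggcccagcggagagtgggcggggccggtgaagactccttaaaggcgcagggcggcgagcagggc
Hsph1: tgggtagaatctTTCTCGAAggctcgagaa

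No match to any of these patterns stood in the upstream windows of Hsf2, Bag3 or Dnajb1. Hsf2 (chr10:57486235-57486384, plus strand) and Dnajb1 (chr8:83608025-83608174, plus strand) are shown because they were the pair of genes most alike across the 5 samples, described below.
Hsf2: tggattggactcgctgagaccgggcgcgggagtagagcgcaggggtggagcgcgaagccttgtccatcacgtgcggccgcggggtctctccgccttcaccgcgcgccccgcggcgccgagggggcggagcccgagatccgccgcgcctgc
Dnajb1: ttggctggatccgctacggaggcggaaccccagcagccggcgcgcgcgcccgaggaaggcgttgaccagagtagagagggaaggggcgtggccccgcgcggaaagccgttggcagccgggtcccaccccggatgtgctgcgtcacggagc

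Of the 10 genes, 8 had enough counts to be tested, and none passed edgeR's quasi-likelihood test over 12350 genes, in which 0 genes (0%) passed an adjusted p of 0.05. At an unadjusted p under 0.05, 1 of the 8 was higher (Hsf1) and 1 lower (Hspb1), against 5.33% of all genes tested higher and 4.56% lower. By DESeq2, 1 of the 8 was called, Hspb1 as lower, against 1.09% of genes called higher and 0.488% lower. Hspb1 passed the count filter through the controls alone, so its p-values are description only. The 5 samples did not overlap for Hsf1, which was higher (14.9% of all genes), or for Hspb1 and Bag3, which were lower (17.2% of all genes). The median log2 fold change of the 8 was -0.22, with 3 above control (53.5% of all genes) and 5 below (46.5% of all genes), while the median of all genes was 0.11. This tally turned with the setting. The median was 0.20 without control 2, 0.36 with the length trend removed and 0.35 with the GC trend removed, each with 5 above control, and -0.59 with upper quartile factors, with 2 above. In bulk RNA, fewer cells with a transcript and less of it per cell cannot be told apart.

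**Figure D1:**
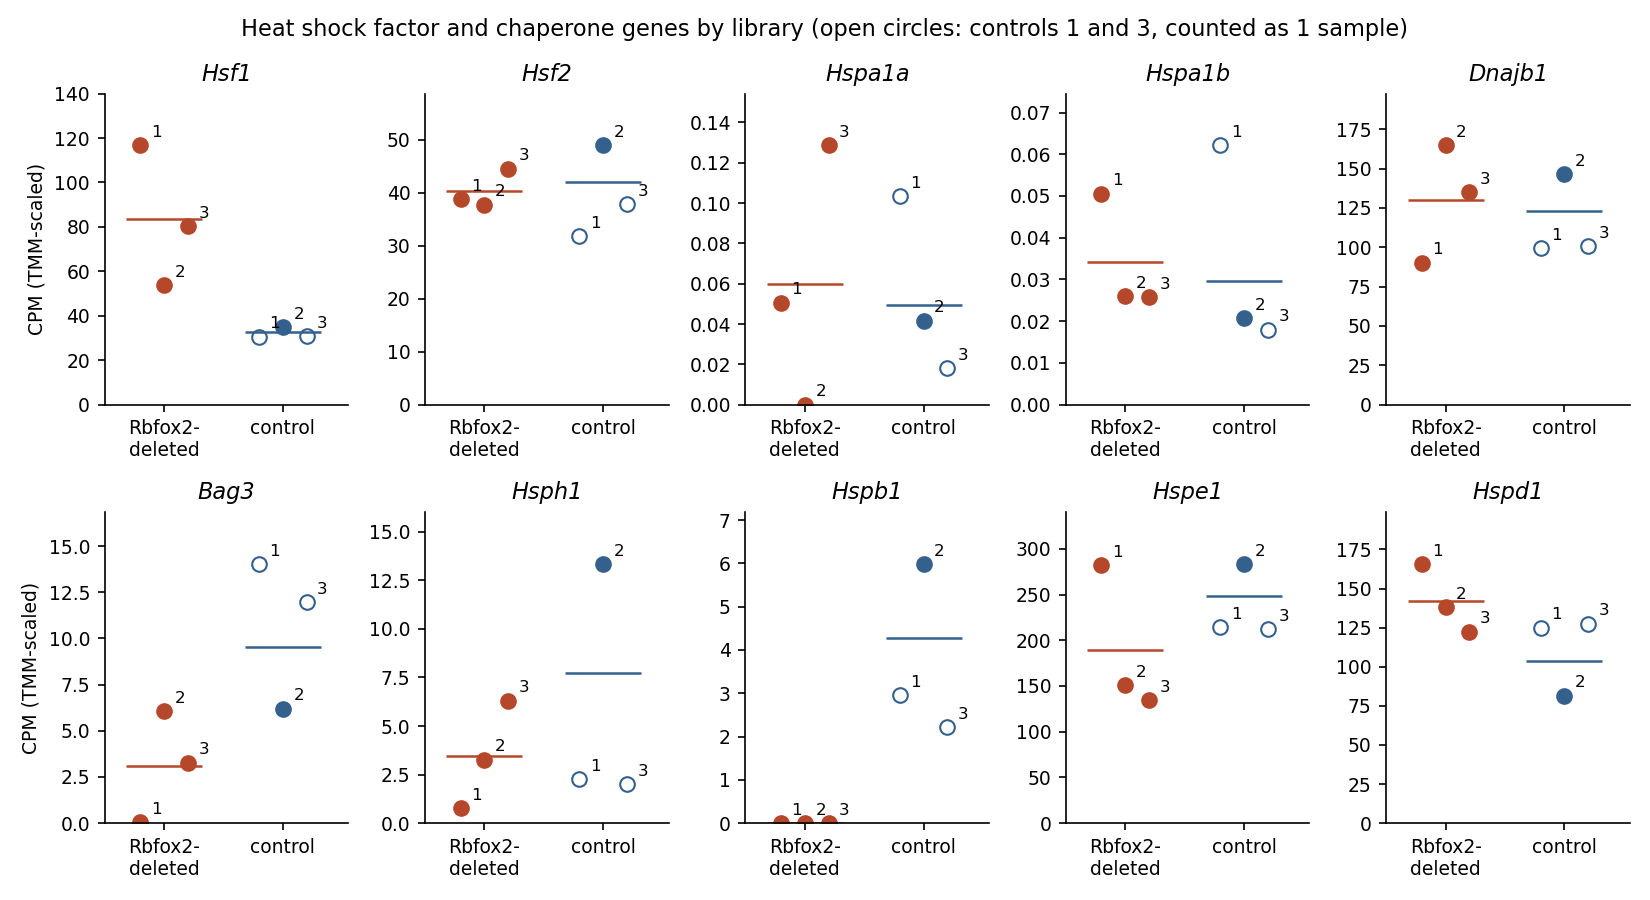
TMM-scaled CPM (read counts relative to library size) of the 10 genes, with 1 panel per gene, each on its own linear axis from 0. Points are libraries with their replicate number, lines are means over 3 samples labelled Rbfox2-deleted (left, red) and 2 control samples (right, blue), and open circles are controls 1 and 3. Hsf1 is higher in all 3 libraries labelled Rbfox2-deleted and Hspb1 is at 0 in all 3.

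Hsf1, the master factor of the response, had its 3 highest values in the libraries labelled Rbfox2-deleted. It stood at 117, 53.8 and 80.3 CPM in libraries 1, 2 and 3 labelled Rbfox2-deleted, against 30.6, 34.9 and 30.9 CPM in controls 1, 2 and 3. The groups did not overlap, and libraries 1 and 3, from the female mice, were the highest. The means were 83.6 ± 31.6 CPM for libraries labelled Rbfox2-deleted (n = 3, SD) and 32.8 ± 2.93 CPM for control (n = 2, SD). This is a log2 fold change of 1.35 with an SE of 0.53, which did not pass edgeR's test over all genes (adjusted p = 0.485). It was 0.71 with sex as a covariate, where male libraries alone set the contrast (53.8 CPM in library 2 labelled Rbfox2-deleted, against 30.6 to 34.9 CPM). Hsf1 (ENSMUSG00000022556) lies on mm10 chromosome 15 from 76477422 to 76501913 on the plus strand.

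Hsf2 did not separate the groups. It had 38.7, 37.8 and 44.5 CPM in libraries 1, 2 and 3 labelled Rbfox2-deleted, against 31.8, 48.9 and 37.8 CPM in controls 1, 2 and 3. The libraries labelled Rbfox2-deleted lay within the range of the controls. Their log2 fold change was -0.06, with an SE of 0.53 (edgeR adjusted p = 0.990). Hsf2 (ENSMUSG00000019878) lies on chromosome 10 from 57486385 to 57513135.

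The balance of both factors was read as a ratio within each library, which needs no scaling between libraries. Per base of the longest annotated transcript, Hsf1 over Hsf2 was 4.35, 2.06 and 2.61 in libraries 1, 2 and 3 labelled Rbfox2-deleted, against 1.39, 1.03 and 1.18 in controls 1, 2 and 3. Per base, Hsf1 thus lay above Hsf2 in all 6 libraries, though barely in control 2, and the ratio did not overlap between the groups. In CPM, Hsf2 was the higher in controls 1, 2 and 3 (31.8, 48.9 and 37.8, against 30.6, 34.9 and 30.9 for Hsf1). The order in the controls thus rests on the transcript lengths used. Mean log2 ratios differed by 1.321. An exact two-sided permutation test over the 5 samples gave p = 0.1, the smallest that 3 against 2 allow. This ratio and that of Hspe1 over Hspd1 were added after the values of these genes were seen.

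**Figure D2:**
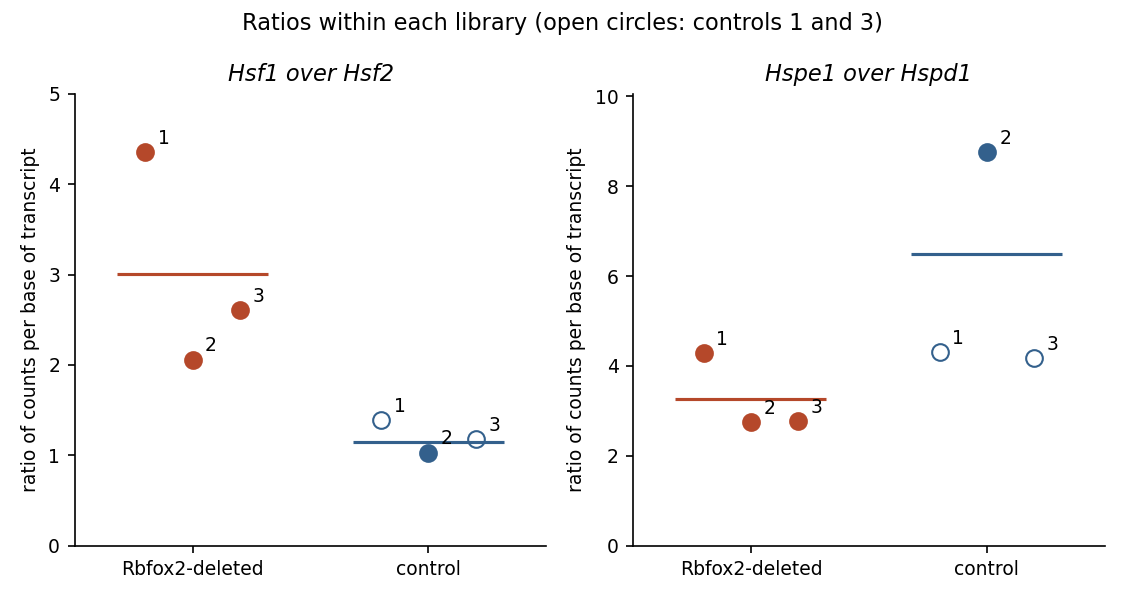
Ratios of counts per base of transcript within each library, Hsf1 over Hsf2 (left panel) and Hspe1 over Hspd1 (right panel), for libraries labelled Rbfox2-deleted (red) and control (blue). Lines are means over 3 and 2 samples and open circles are controls 1 and 3. The Hsf1 over Hsf2 ratio lies above 2 in every library labelled Rbfox2-deleted, and the Hspe1 over Hspd1 ratio stands out in control 2.

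Hspa1a and Hspa1b, which encode the stress-inducible HSP70 proteins and mark an acute heat shock response, were barely detected in either group. Hspa1a had 1, 0 and 5 counts in libraries 1, 2 and 3 labelled Rbfox2-deleted, against 5, 2 and 1 in controls 1, 2 and 3. Hspa1b had 1 count in each library labelled Rbfox2-deleted, against 3, 1 and 1 counts in controls. Over all 6 libraries these were 14 counts of Hspa1a and 8 of Hspa1b, too few to test, and no fold is given. Both lie on the minus strand of chromosome 17, Hspa1a (ENSMUSG00000091971) from 34969190 to 34972156 and Hspa1b (ENSMUSG00000090877) from 34956436 to 34959238.

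These values are uncertain because the copies are nearly the same. Of all 50-base windows of the longest annotated transcript, 66.3% in Hspa1a and 62.3% in Hspa1b occur in another annotated gene, and 56.5% and 49.9% of 100-base windows do. The handling of reads that match several places was not given in the sources used here, and its part in these counts was not tested. An exon of Gm20481 on the opposite strand overlaps 19% of the exon bases of Hspa1a, and Smart-seq2 does not keep strand.

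**Figure D3:**
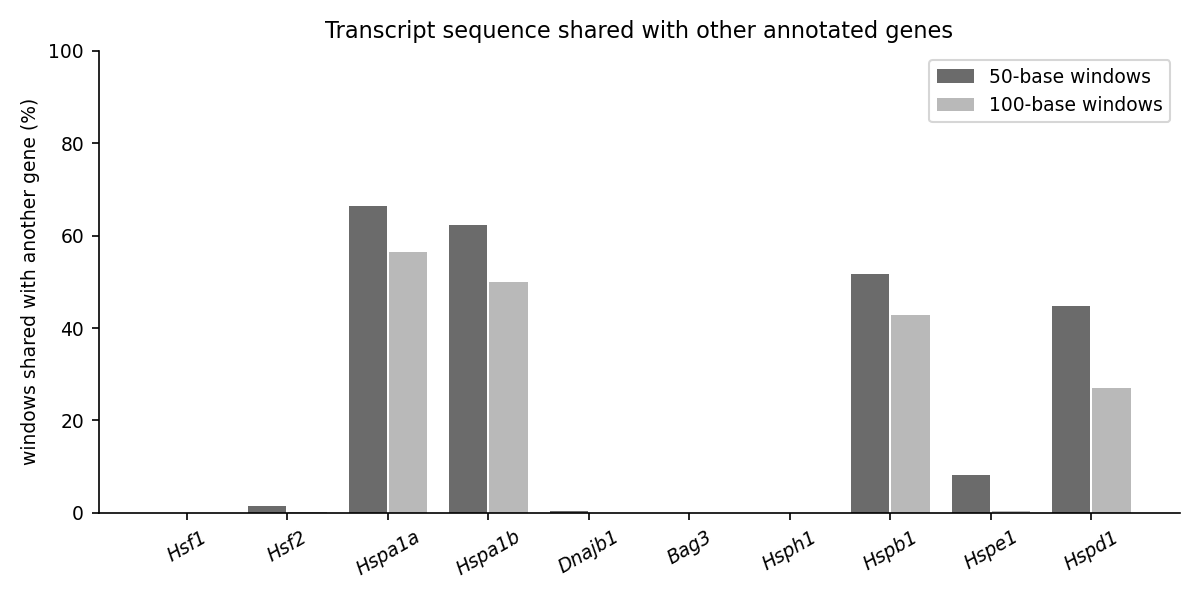
Share of 50-base (dark) and 100-base (light) windows of the longest annotated transcript of each gene that occur on either strand in an annotated transcript of another gene. Hspa1a, Hspa1b, Hspb1 and Hspd1 share between 44.8% and 66.3% of their 50-base windows, and the other 6 genes at most 8.197%.

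Partners of HSP70 were mixed. Dnajb1, the J-domain protein that delivers clients to HSP70 and turns HSF1 off, had 90.3, 165 and 135 CPM in libraries 1, 2 and 3 labelled Rbfox2-deleted, against 99.5, 146 and 101 CPM in controls 1, 2 and 3. Library 1 labelled Rbfox2-deleted was the lowest and library 2 the highest of all, so the groups overlapped. With an SE of 0.40, the log2 fold change was 0.08 (edgeR adjusted p = 0.983). Dnajb1 (ENSMUSG00000005483) lies on chromosome 8 from 83608193 to 83612653.

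Bag3, a nucleotide exchange factor of HSP70 that steers misfolded clients to autophagy, had 0.0506, 6.05 and 3.27 CPM in libraries 1, 2 and 3 labelled Rbfox2-deleted, against 14.0, 6.20 and 12.0 CPM in controls 1, 2 and 3. Library 1 labelled Rbfox2-deleted held 1 read of Bag3, and library 2 lay close to control 2. Without TMM factors these stood at 6.54 CPM in library 2 labelled Rbfox2-deleted and 5.77 CPM in control 2, so that the groups overlapped. Bag3 gave a log2 fold change of -1.61 with an SE of 1.73 (edgeR adjusted p = 0.892). At most 1 count in library 1 was common, for 23.1% of all genes tested. Bag3 (ENSMUSG00000030847) lies on chromosome 7 from 128523616 to 128546981.

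Hsph1 encodes HSP110, a large relative of HSP70 that acts as its exchange factor and with it dissolves aggregates. It had 0.759, 3.27 and 6.30 CPM in libraries 1, 2 and 3 labelled Rbfox2-deleted, against 2.26, 13.4 and 1.996 CPM in controls 1, 2 and 3. Control 2 was the highest and the other controls lay between libraries 1 and 2 labelled Rbfox2-deleted. The log2 fold change of -1.16 (SE 1.49, edgeR adjusted p = 0.914) turned to 0.72 without control 2. Hsph1 (ENSMUSG00000029657) lies on chromosome 5 from 149614287 to 149636376.

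Hspb1, the small heat shock protein HSP27 that holds unfolded proteins in a soluble state without using ATP, had no read in any library labelled Rbfox2-deleted. It had 0, 0 and 0 counts in libraries 1, 2 and 3 labelled Rbfox2-deleted, against 143, 288 and 123 in controls 1, 2 and 3. In CPM the controls stood at 2.96, 5.99 and 2.21. The upper 95% Poisson limits that a count of 0 allows were 0.187, 0.0958 and 0.0949 CPM in libraries 1, 2 and 3 labelled Rbfox2-deleted, for counting error only.

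Taking 3 counts as the floor of the shallowest library labelled Rbfox2-deleted (0.152 CPM), Hspb1 was at least 28.2-fold lower in libraries labelled Rbfox2-deleted than its control mean of 4.28 ± 2.42 CPM (SD, n = 2). The bound covers counting error in the libraries labelled Rbfox2-deleted only and leaves out the error of the control mean. Its floor lies below the upper Poisson limit of 0.187 CPM in library 1 labelled Rbfox2-deleted, with which the fold would be smaller. The bound was 16.9-fold without control 2, the highest control, and 54.9-fold without library 1 labelled Rbfox2-deleted, the shallowest. The edgeR p was 0.0104 (adjusted p = 0.387). DESeq2 gave an adjusted p = 0.0412, and the adjusted p lay between 0.0412 and 1 over the 18 alternatives. All 18 placed Hspb1 lower, which its 0 counts in every library labelled Rbfox2-deleted fixed in advance. Hspb1 passed the count filter through the controls alone, so its p-values are given as description only.

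Of the 50-base windows of Hspb1, 51.6% also occur in its pseudogene Hsp25-ps1, so its counts are uncertain. Small heat shock proteins are abundant in muscle, platelets and vessel cells. The summed level of 6 megakaryocyte and platelet genes was 52.4 to 238 CPM in libraries labelled Rbfox2-deleted and 298 to 317 CPM in control, and Pf4, Ppbp and Gp1bb were at 0 in library 1 labelled Rbfox2-deleted alone. This sum was mostly Gp9 and Pf4. In edgeR's fit 5 of the 6 lay below control (46.5% of all genes) and 1 above (53.5% of all genes), Itga2b (log2 0.62). The summed level of 11 granulocyte and monocyte genes was 1636 to 2012 CPM against 2112 to 2891 CPM in control (3 to 4 against 0 to 1 of them at 0), mostly Lyz2 and Prtn3, with Mpo and Ctsg below 1 CPM in all 6 libraries. S100a8 and S100a9 had log2 values above 0 in edgeR's fit (0.99 and 1.51). That of 5 B cell genes was 127 to 212 CPM against 226 to 323 CPM in control, nearly all of it Cd79b, with Pax5 at or near 0 in all 6 libraries. That of 7 stromal and endothelial genes was 15.3 to 38.9 CPM against 8.08 to 10.4 CPM in control, mostly Pecam1. The part of these cells in the Hspb1, Bag3 or Hsf1 values was not tested. Hspb1 (ENSMUSG00000004951) lies on chromosome 5 from 135887919 to 135889563.

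The mitochondrial chaperonin genes Hspe1 and Hspd1, which encode the HSP10 lid and the HSP60 barrel that fold imported proteins, went different ways in value. Hspe1 had 282, 151 and 135 CPM in libraries 1, 2 and 3 labelled Rbfox2-deleted, against 214, 284 and 212 CPM in controls 1, 2 and 3. Libraries 2 and 3 labelled Rbfox2-deleted lay below every control and library 1 beside the highest. Hspe1 thus had a log2 fold change of -0.39 with an SE of 0.40 (edgeR adjusted p = 0.888). Without library 1 labelled Rbfox2-deleted it was -0.81 (unadjusted p = 0.0121, adjusted p = 0.106).

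Hspd1 had 166, 138 and 123 CPM in libraries 1, 2 and 3 labelled Rbfox2-deleted, against 125, 81.5 and 128 CPM in controls 1, 2 and 3. Control 2 was the lowest, and the other controls lay among the libraries labelled Rbfox2-deleted. For Hspd1 the log2 fold change was 0.45, with an SE of 0.36 (edgeR adjusted p = 0.817). The groups overlapped, although without TMM factors all 3 libraries labelled Rbfox2-deleted (139.9 to 149.5 CPM) lay above both control samples (127.5 and 75.9 CPM).

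Although the genes share an upstream region, their ratio varied between libraries. Hspe1 over Hspd1 per base was 4.28, 2.74 and 2.77 in libraries 1, 2 and 3 labelled Rbfox2-deleted, against 4.31, 8.75 and 4.18 in controls 1, 2 and 3. Control 2 had the highest ratio. The mean was 3.26 ± 0.879 for libraries labelled Rbfox2-deleted (n = 3, SD) and 6.49 ± 3.19 for control (n = 2, SD), with an exact two-sided permutation p = 0.3. Hspe1 is a short transcript of 964 bases, and with the trend on transcript length removed its log2 value turned to 0.58, while the median of all genes moved to 0.47. Exons of the pair overlap by 112 bases on opposite strands, and 44.8% of the 50-base windows of Hspd1 are shared with other annotated genes, mostly Hspd1-ps3. Hspe1 (ENSMUSG00000073676) lies on chromosome 1 from 55088132 to 55091307 on the plus strand and Hspd1 (ENSMUSG00000025980) from 55077835 to 55088243 on the minus strand.

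**Figure D4:**
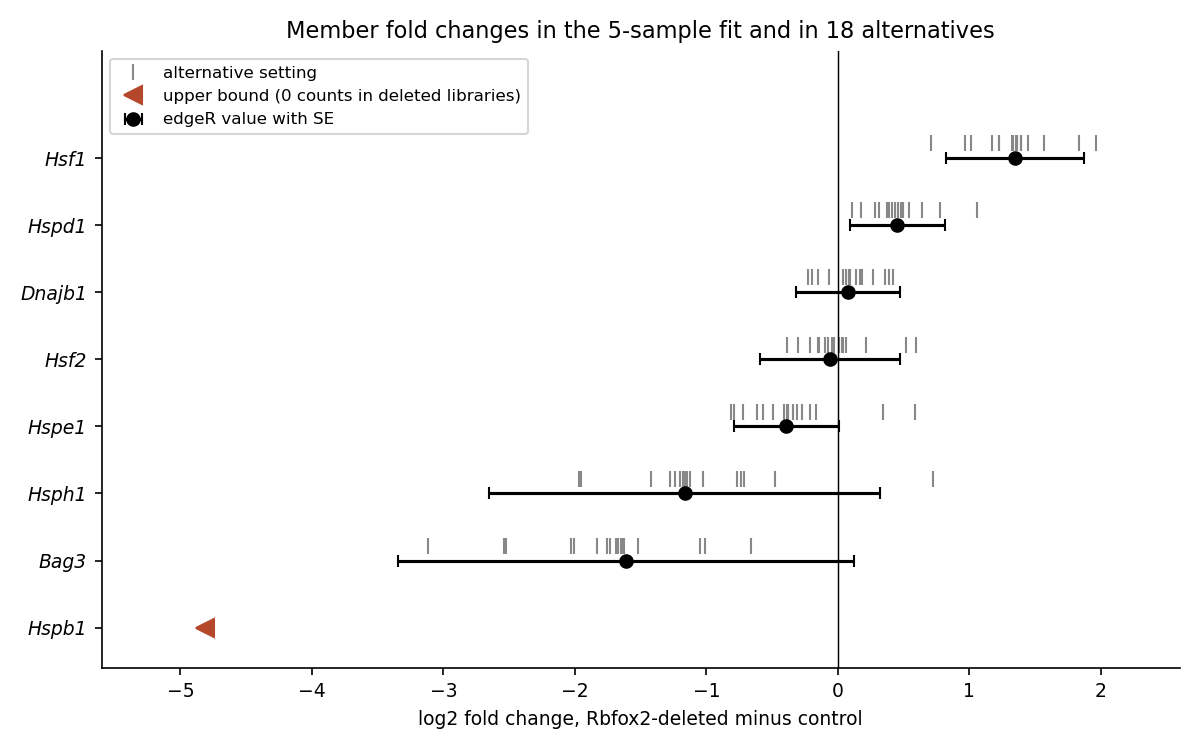
Log2 fold changes (libraries labelled Rbfox2-deleted minus control) of the 8 genes tested. Black points with bars are edgeR values with SE in the 5-sample fit, grey ticks the 18 alternatives, and the triangle the upper bound of Hspb1. Hsf1 lies above 0 and Bag3 below 0 in every setting, while ticks of Dnajb1, Hsf2, Hspe1 and Hsph1 fall on both sides.

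Set against each other per transcript length, the genes kept much the same order in every library. Hspe1 was the most abundant message in all 6, at 412, 278 and 275 TPM (counts per transcript length, relative to the library) in libraries 1, 2 and 3 labelled Rbfox2-deleted and 333, 399 and 329 in controls 1, 2 and 3. Hspd1 came second in 5 of the 6 libraries, with 96.4, 102 and 99.4 TPM in libraries labelled Rbfox2-deleted and 77.3, 45.6 and 78.8 in controls, and Dnajb1 overtook it in control 2. Hsf1 stood at 52.4, 30.5 and 50.4 TPM in libraries labelled Rbfox2-deleted, above Dnajb1 in library 1, and at 14.6, 15.1 and 14.8 in controls. Bag3, Hsph1 and Hspb1 lay below 10 in every library.

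As profiles over the 5 samples, on the log2(CPM + 1) scale and each centred on its mean, Hsf2 and Dnajb1 were closest, at a Euclidean distance of 0.648. Hsf1 and Bag3 were farthest apart, at 4.30. The lowest to highest sample spanned 0.47 on the log2 scale for Hsf2 and 0.86 for Dnajb1, against 3.73 for Bag3 and 3.03 for Hsph1. All 28 pairs of the 8 genes tested were compared, as a description with no test.

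The wider pathway was read from gene lists, which were also chosen with earlier results of these data known. The list of other HSF1 targets held chaperone and co-chaperone genes, some of them constitutive, and a few genes of other kinds. Of its 22 genes that were tested, 16 lay above (53.5% of all genes) and 6 below control (46.5% of all genes). The median log2 value was 0.62 beside 0.11 for all genes. At an unadjusted p under 0.05, 4 were higher (5.33% of all genes) and 0 lower (4.56% of all genes). These were the constitutive HSP70 Hspa8 (log2 1.62, SE 0.26), the HSP90 co-chaperone Fkbp4 (1.24, SE 0.30), the S100 and Siah-binding protein Cacybp (0.99, SE 0.27) and Stip1 (1.45, SE 0.45), which joins HSP70 to HSP90. None passed edgeR over all genes (adjusted p = 0.387 for the first 3 and 0.399 for Stip1), and DESeq2 called Hspa8 (adjusted p = 0.0192). The median was 0.04 with limma-voom, where 13 lay above control, and 0.20 with upper quartile factors, where 12 did. In 10 of the 22 the 5 samples did not overlap and were higher (14.9% of all genes), and in 1 lower (17.2% of all genes), Hsp90ab1, named after its values were seen.

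Stip1 had 71.0, 130 and 125 CPM in libraries 1, 2 and 3 labelled Rbfox2-deleted, against 39.33, 39.97 and 39.96 CPM in controls 1, 2 and 3. Cacybp had 344, 271 and 282 CPM in libraries labelled Rbfox2-deleted, against 141, 159 and 144 CPM in controls. Both were about level among the controls and higher in each library labelled Rbfox2-deleted. Hsp90ab1, the constitutive HSP90, had 1851, 1203 and 916 CPM in libraries labelled Rbfox2-deleted, against 1856, 2263 and 1899 CPM in controls (log2 -0.65, SE 0.34, adjusted p = 0.628).

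Of 9 other heat shock factors and regulators of HSF1 tested, 3 lay above (53.5% of all genes) and 6 below control (46.5% of all genes). The median was -0.38. At an unadjusted edgeR p under 0.05, 2 were lower (4.56% of all genes) and 0 higher (5.33% of all genes). With limma-voom 0 lay above control and the median was -2.34. Hsbp1, a small protein that binds HSF1 trimers and restrains them, had 337, 439 and 432 CPM in libraries 1, 2 and 3 labelled Rbfox2-deleted, against 578, 709 and 586 CPM in controls 1, 2 and 3 (log2 -0.68, SE 0.25, adjusted p = 0.458). The groups did not overlap. Its relative Hsbp1l1 was at 0 in every library labelled Rbfox2-deleted and at 0.870, 2.64 and 1.151 CPM in controls, at least 12.1-fold lower (adjusted p = 0.387). That bound was 6.73-fold without control 2 and 23.5-fold without library 1 labelled Rbfox2-deleted. It uses the same floor of 3 counts, covers counting error only and leaves out the error of the control mean. Hsbp1l1, 1 of the 2 lower genes, passed the count filter through the controls alone, so its p-value is description only. The other heat shock factors Hsf3, Hsf4 and Hsf5 had too few counts to test.

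All 5 other small heat shock protein genes that were tested lay below control (median -1.36), as did 46.5% of all genes. Hspb6 had the smallest p of them (log2 -1.45, SE 1.94, adjusted p = 0.921), and all 5 had 0 counts in library 1 labelled Rbfox2-deleted, in which 23.1% of all genes had at most 1. Without that library 1 of the 5 lay above control and the median was -0.79, and with sex as a covariate 2 did and it was -0.18. Of 12 HSP70 exchange factors and BAG proteins, 7 lay above (53.5% of all genes) and 5 below control (46.5% of all genes), with a median of 0.39. This median turned to -0.10 with limma-voom, -0.03 with upper quartile factors and -0.08 without library 1 labelled Rbfox2-deleted. Bag2, an inhibitor of the HSP70-associated ubiquitin ligase, had 86.4, 104 and 43.7 CPM in libraries 1, 2 and 3 labelled Rbfox2-deleted, against 16.5, 13.8 and 17.9 CPM in controls 1, 2 and 3. Its log2 value was 2.33 (SE 0.62, edgeR adjusted p = 0.387, DESeq2 adjusted p = 0.0325), with no overlap.

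Of 17 other mitochondrial chaperones and proteases, 10 lay above (53.5% of all genes) and 7 below control (46.5% of all genes). The median was 0.03, and -0.35 to 0.53 over the 18 alternatives. At an unadjusted edgeR p under 0.05, 2 were lower (4.56% of all genes) and 0 higher (5.33% of all genes). The 2 lower genes were the protease subunit Clpp (log2 -1.15, SE 0.29, adjusted p = 0.387) and the iron-sulfur co-chaperone Hscb (-0.77, SE 0.28, adjusted p = 0.462). Immediate early genes, which respond to cell handling, gave 8 above (53.5% of all genes) and 7 below control (46.5% of all genes) of 15 tested. The median was 0.05, and -0.81 to 0.52 over the 18 alternatives. Only Junb had an unadjusted edgeR p under 0.05, as higher (5.33% of all genes), at 1.06 (SE 0.42, adjusted p = 0.488). The summed level of the immediate early genes was 719 to 1226 CPM in libraries labelled Rbfox2-deleted and 668 to 888 CPM in control, and it overlapped.

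**Figure D5:**
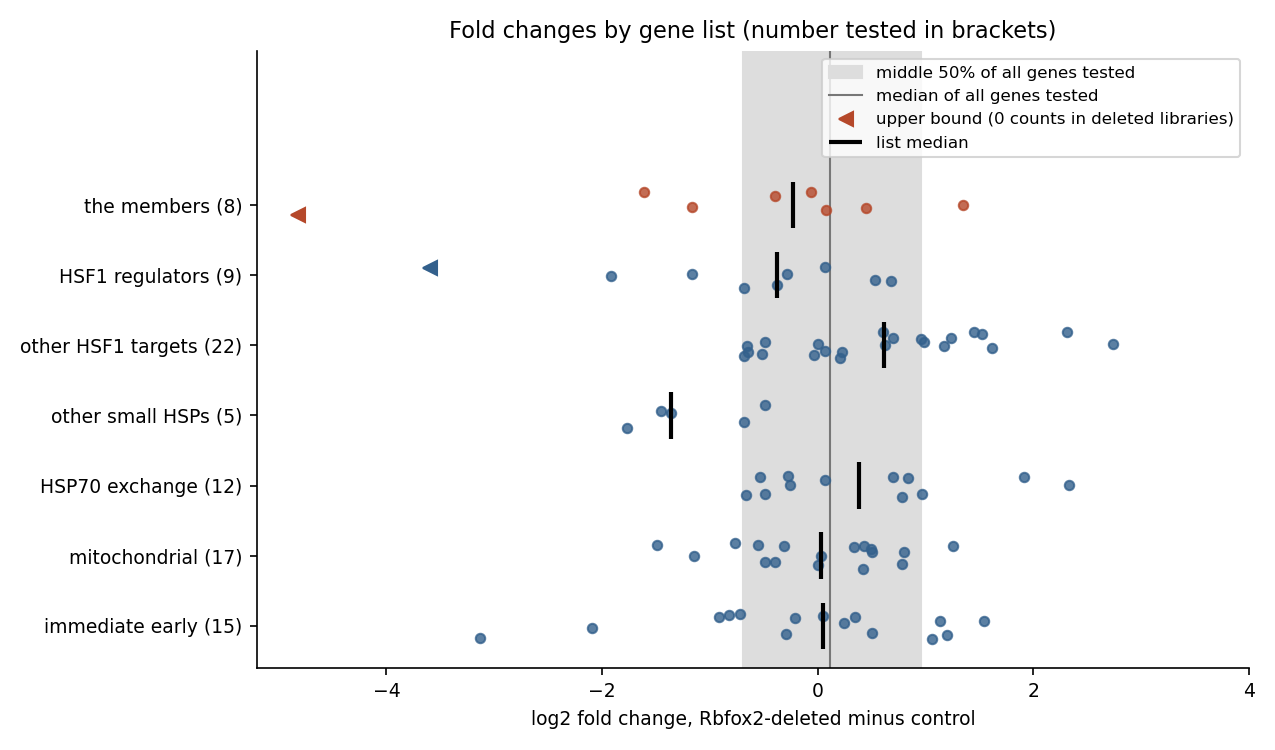
Log2 fold changes (libraries labelled Rbfox2-deleted minus control) of the genes tested in each list, 1 point per gene, with list medians as black bars. Triangles are upper bounds of genes with 0 counts in every library labelled Rbfox2-deleted. The 8 members (top row) have a median of -0.22 (above 0 in 3 of the 18 alternatives) and the 22 other HSF1 targets one of 0.62, beside a median of 0.11 for all genes.

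Of the lists of cell types, 12 stem cell genes had 7 above and 5 below control, with a summed level of 1661 to 1745 CPM in libraries labelled Rbfox2-deleted and 1836 to 1924 CPM in control. Ly6a, the gene of the Sca-1 antigen used in the sort, was at log2 -1.10 (SE 0.25, adjusted p = 0.387). Summed levels of 7 erythroid genes (61.7 to 558 CPM in libraries labelled Rbfox2-deleted, 97.0 to 162 CPM in control), 6 T and NK cell genes (80.2 to 98.5 and 82.5 to 104 CPM), 4 mast cell genes (0 to 8.21 and 2.12 to 8.99 CPM), 6 macrophage genes (2.78 to 68.3 and 65.8 to 78.0 CPM) and 3 progenitor genes (95.5 to 147 and 53.6 to 100.3 CPM) overlapped. By edgeR, the granulocyte protease Elane had the smallest p of all the genes in these lists of other cell types (adjusted p = 0.393). It stood at 0.0506, 0 and 0 CPM in libraries 1, 2 and 3 labelled Rbfox2-deleted, against 2.73, 1.33 and 2.97 CPM in controls 1, 2 and 3. Elane passed the count filter through the controls alone, so its p-value is description only. The genes with the smallest p in the other lists had log2 values of -1.08 for Gp9 of platelets, -0.69 for Cd79b, 1.29 for the endothelial Pecam1, 1.73 for the globin Hba-a2, 3.41 for Cd4, -0.98 for Cpa3 of mast cells, -2.40 for the macrophage C1qa and 0.68 for Cd34, with adjusted p between 0.551 and 0.965.

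Mitochondrially encoded genes took 3.90% to 5.19% of counts in libraries labelled Rbfox2-deleted and 5.52% to 5.58% in control.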

How the data were processed

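Whole-number counts of reads per Ensembl gene were deposited by the authors without normalization, 1 column per library. The submitters' processing notes name featureCounts, Trimmomatic 0.39, DESeq2 1.36.0 and build mm10. For aligner, annotation, strand setting and read length: not given in the sources used here. Smart-seq2 has no molecular identifiers, so intervals cover counting error only. Rows sharing an identifier were summed (60 identifiers on 134 of 23043 rows, no member among them). Symbols were found for 22831 of 22969 identifiers. Positions, transcripts and window sharing came from GENCODE M21 on the same build, and promoters from RefSeq.

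Controls 1 and 3 were summed, and the 5 samples went into edgeR 4.0.16 under R 4.3.3 (filterByExpr, minimum count 10, minimum total 15, TMM, two-sided quasi-likelihood test, Benjamini-Hochberg over 12350 genes, threshold 0.05). SE is the fold change over the square root of F. CPM are TMM-scaled, and TPM use the longest transcript. Alternatives used limma 3.58.1 (voom), DESeq2 1.42.0 on the same genes, other factors, filters, libraries and covariates, 18 in all, and the scripts were tested on simulated data. Labels name a control or mutant mouse and a replicate number, without an identifier of the mouse. The p-values measure the spread between these 5 samples.

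All 10 members are named, and of other lists up to 4 genes per direction with an unadjusted p under 0.05, else the gene with the smallest p. Members and lists were chosen with earlier results of these data known.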

Additional observations from a re-analysis of the deposited data

How the results depend on the processing

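Among the 18 alternatives, DESeq2 alone called genes at an adjusted p of 0.05, with 181 over all genes (1.09% higher and 0.488% lower). It called 1 of the 8 members tested, Hspb1 as lower (DESeq2 adjusted p = 0.0412). Hspb1 passed the count filter through the controls alone, so this call is description only. The other 17 called 0 genes, with 371 to 2924 at an unadjusted p under 0.05, against 1221 in the 5-sample edgeR fit. Leaving out 1 library at a time gave 0 calls each time, with 465 genes at an unadjusted p under 0.05 without control 2 and 2924 without library 1 labelled Rbfox2-deleted. The values were 2145 with 6 separate libraries, 559 without controls 1 and 3, 371 with sex as a covariate, 538 with the length trend removed and 647 with the GC trend removed. Signs of Hsf1 (0.71 to 1.96), Bag3 (-3.12 to -0.66) and Hspd1 (0.10 to 1.06) held in all 18. That of Hspb1 was fixed by its 0 counts in every library labelled Rbfox2-deleted. The log2 value of Hsf2 turned to 0.028 with limma-voom, 0.041 with 6 separate libraries, 0.0085 without control 3, 0.21 without control 2, 0.59 with the length trend removed and 0.52 with the GC trend removed. That of Dnajb1 turned to -0.23 with upper quartile factors, -0.067 with no filter, -0.15 without library 2 labelled Rbfox2-deleted (-0.15 to 0.39 leaving out 1 library at a time) and -0.20 without controls 1 and 3. That of Hspe1 turned to 0.58 and 0.35 with the length and GC trends removed, that of Hsph1 to 0.72 without control 2 (-1.95 to 0.72 leaving out 1 library at a time), and that of Rbfox2 to 1.90 without controls 1 and 3. The median of all genes was 0.47 and 0.50 with these trends removed and -0.20 with upper quartile factors. The cause of these turns was not tested. Replicate numbers are shared by both groups, but same-numbered libraries did not deviate together (correlations -0.05, -0.02 and 0.05). With a replicate block on 6 separate libraries 0 genes and 0 members were called, 1348 genes had an unadjusted p under 0.05, and Hsf2 was at 0.064. Fits that leave 1 control sample assume that it varies like the others. With a common dispersion of 1.09 and 2 control samples, a call needs large differences. Without TMM factors, chosen after seeing the data, 3 members tested still had samples that did not overlap, Hsf1 and Hspd1 higher and Hspb1 lower. The replicate block gave 0 of 9 HSF1 regulators above control (median -2.19) and a median of -0.01 for the HSP70 exchange factors. Bounds and small heat shock protein counts without a library were likewise chosen after seeing the data.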
